A study of Homo sapiens with 12 samples.

Results

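Immediate early genes are transcribed within minutes of a stimulus from factors that the cell already holds, and the 10 rows described here are immediate early genes outside the AP-1 family, together with serum response factor. They were chosen by name, and each was matched to its row by Ensembl identifier, giving 10 of the 20345 rows of the expression table. The genes were EGR1, EGR2 and EGR3, IER2, IER3 and IER5, ZFP36 and ZFP36L1, BTG2, and SRF. Of these, 8 passed the filter on low values (a mean of at least 1 FPKM over all libraries, met by 11225 rows) and were tested, while EGR2 and EGR3 did not pass.

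RNA was sequenced from HGC-27, an established human gastric cancer cell line, in 12 libraries that formed 4 groups of 3. These were WT cells without treatment, WT cells given the peptide GLUP, cells labelled TEAD4KO without treatment, and cells labelled TEAD4KO given GLUP. TEAD4 is a member of the TEAD family of transcription factors, through which Hippo signalling reaches DNA. GLUP is a designed peptide that binds TEAD4 and draws its molecules together. No genotype label was attached to the WT libraries, which the series description names as WT. No dose or time of GLUP was labelled, and the durations in the text of the study differ from each other. Those durations are hours, so levels in the first minutes after GLUP were not measured. The untreated libraries were labelled as having no treatment, whereas the methods of the study describe a buffer control, and whether the TEAD4KO cells were 1 clone was not stated. The methods of the study call the RNA replicates biological, without saying whether those of a group came from separate cultures, so p-values measure the spread between these libraries. The untreated libraries carry replicate numbers 1 to 3 and the GLUP libraries 14 to 16. A difference that goes with these numbers cannot be told apart from one that goes with GLUP.

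EGR proteins are zinc finger activators that bind GC-rich sites and are held in check by the NAB corepressors. IER2, IER3 and IER5 are short proteins made after growth factor or stress signals, and IER3 is known to modulate survival signalling, whereas IER5 takes part in the heat shock response. ZFP36 and ZFP36L1 bind AU-rich elements of mRNAs and hasten their decay, and BTG2 recruits the same deadenylase machinery and slows proliferation. SRF is the factor that binds CArG boxes. With the ternary complex factors ELK1, ELK3 and ELK4 it answers ERK signalling, and with the actin-regulated coactivators MRTFA and MRTFB it drives cytoskeletal genes.

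The CArG box is a run of A and T bases flanked by a pair of C and a pair of G. By this sequence SRF reaches EGR1 and its own gene. These promoters are shown with those of IER2 and IER5, which were higher with the TEAD4KO label over both treatments. The IER2 call was lost after the correction for GC content and length described below. The sequences are the 250 bases before each transcript start, taken from RefSeq on GRCh38.p14, and 8 of the 10 members had a window, in 12 windows. IER3, also higher with the label over both treatments, and EGR3 had none. Capitals mark CArG boxes in the EGR1 and SRF windows.
EGR1, chr5:138465229-138465478, plus strand: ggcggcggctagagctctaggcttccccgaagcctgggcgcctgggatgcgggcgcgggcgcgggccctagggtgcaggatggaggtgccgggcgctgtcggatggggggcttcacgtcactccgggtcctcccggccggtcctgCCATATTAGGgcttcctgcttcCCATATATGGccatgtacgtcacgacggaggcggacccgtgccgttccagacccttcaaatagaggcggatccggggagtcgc
SRF, chr6:43171019-43171268, plus strand: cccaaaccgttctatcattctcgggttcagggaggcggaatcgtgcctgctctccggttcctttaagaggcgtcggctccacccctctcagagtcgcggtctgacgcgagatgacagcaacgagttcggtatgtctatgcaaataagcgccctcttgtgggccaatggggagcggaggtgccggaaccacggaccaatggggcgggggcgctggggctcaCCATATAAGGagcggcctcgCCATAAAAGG
In the IER2 and IER5 windows, which held no CArG box, capitals mark the sequence CCGGAA, a longer form of the core bound by Ets factors, or its reverse complement.
IER2, chr19:13150161-13150410, plus strand: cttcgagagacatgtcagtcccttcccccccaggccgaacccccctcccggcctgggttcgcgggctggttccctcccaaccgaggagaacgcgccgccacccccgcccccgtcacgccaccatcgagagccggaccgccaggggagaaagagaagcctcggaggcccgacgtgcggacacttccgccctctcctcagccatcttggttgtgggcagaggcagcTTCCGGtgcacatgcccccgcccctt
IER5, chr1:181088450-181088699, plus strand: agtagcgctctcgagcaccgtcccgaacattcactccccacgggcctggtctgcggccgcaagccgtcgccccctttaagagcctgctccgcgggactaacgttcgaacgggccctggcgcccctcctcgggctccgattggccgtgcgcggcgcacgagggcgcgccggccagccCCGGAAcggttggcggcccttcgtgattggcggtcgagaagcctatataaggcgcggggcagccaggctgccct

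Both strands were searched. CArG boxes began at positions -105 and -83 from the EGR1 start and at -30 and -10 from the SRF start. A further one stood in 1 of the EGR2 windows. In all, 3 of the 12 member windows held a CArG box, as did 1.16% of the 34943 windows in the RefSeq table. CCGGAA was found in the windows of IER2, IER5 and SRF (14.5% of all windows). The TEAD core GGAATG was found in windows of EGR2, ZFP36 and ZFP36L1 (11.9% of all windows), and the AP-1 site TGANTCA in none of the 12 (6.59% of all windows). A match says only that these letters are present.

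The table holds FPKM, fragments scaled by transcript length and by the mapped fragments of the library, so levels can be compared between genes. Total FPKM per library lay between 375361 and 423757, no pair of libraries was identical, and Pearson correlations within groups ranged from 0.986 to 0.996 on the log2(FPKM + 1) scale. TEAD4 itself was not lower in the libraries labelled TEAD4KO (26.0 to 30.1 FPKM) than in WT libraries (22.9 to 25.8 FPKM), so these are called by their label. In every comparison of the TEAD4KO label with WT, shorter transcripts tended to be higher, with a Spearman correlation of -0.531 between the difference over both treatments and transcript length across the tested rows that have a length. Among the single libraries, the correlation of transcript length with the deviation from the mean of all libraries was 0.123 to 0.471 in WT and -0.254 to -0.566 in 4 of the TEAD4KO libraries, while TEAD4KO untreated replicate 1 (-0.0906) and TEAD4KO GLUP replicate 16 (0.159) stood nearer to WT. Both are therefore left out together as an alternative beside the calls below. The TEAD4KO libraries that remain differ more from WT in this trend, so further calls in that alternative are no support for them. The rows at 0 made up 23.7% to 25.5% of each TEAD4KO library and 21.1% to 22.3% of each WT library. Of the epithelial markers fixed for checking the cell type label, EPCAM, KRT18 and KRT19 did not exceed 0.290 FPKM in any library, KRT8 ranged from 3.78 to 9.13 FPKM and CDH1 from 2.04 to 3.68 FPKM. The mesenchymal marker VIM reached 1238 to 1704 FPKM and FN1 3.85 to 9.15 FPKM, whereas CDH2 did not exceed 0.149 FPKM. Of the fibroblast markers, COL1A1 reached 155 to 304 FPKM, COL1A2 4.93 to 9.80 FPKM, DCN 55.1 to 77.6 FPKM and LUM 48.6 to 64.5 FPKM. CD3E and CDH5 were listed at 0 in all libraries, VWF did not exceed 0.0439 FPKM, PTPRC 0.276 FPKM and CD14 0.703 FPKM.

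By their mean over the 12 libraries, the members followed the order IER2 (22.4 FPKM), IER3 (19.1), IER5 (13.9), ZFP36L1 (13.3), SRF (13.2), EGR1 (5.53), BTG2 (3.02), ZFP36 (2.72), EGR3 (0.180) and EGR2 (0.04996). The ranges of IER5 (11.6 to 16.5 FPKM), ZFP36L1 (11.7 to 16.1 FPKM) and SRF (12.2 to 14.8 FPKM) overlapped throughout, as did those of IER2 (14.99 to 37.0 FPKM) and IER3 (14.3 to 24.996 FPKM), those of IER3 and IER5, and those of BTG2 (2.32 to 4.03 FPKM) and ZFP36 (2.28 to 3.28 FPKM). EGR1 ranged from 4.10 to 8.66 FPKM, a range that met that of no other member. EGR2 was at or below 0.124 FPKM in all 12 libraries and listed at 0 in 2 of them, and EGR3 lay between 0.0753 and 0.281 FPKM. No test was made of either.

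On GRCh37, EGR1 spans chr5:137801168-137804992 (plus strand), IER2 chr19:13261225-13265725 (plus), IER3 chr6:30710976-30712325 (minus), IER5 chr1:181057836-181062036 (plus, 1 exon) and SRF chr6:43139007-43149244 (plus). IER3 shares 759 and 440 bases with the antisense genes HCG20 and IER3-AS1, and IER2 shares bases with 2 antisense genes. Since the strand setting of the counting is not given in the sources used here, reads of these partners cannot be told apart from those of IER2 and IER3.

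**Figure D1:**
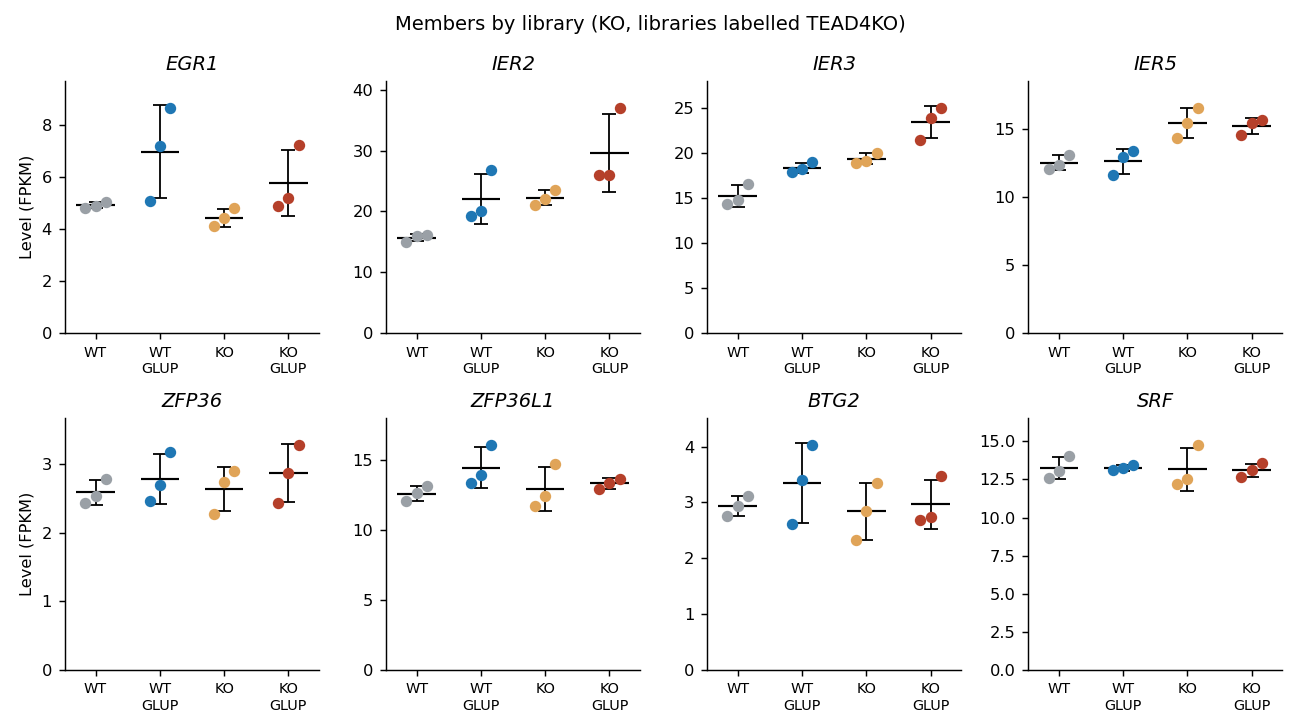
Level of each tested member in FPKM (vertical axes start at 0 and differ between panels) in the 12 libraries, 3 points per group, with the group mean as a horizontal bar and the SD as an error bar. In both genotypes the GLUP points of EGR1, IER2 and IER3 lie above the untreated ones, and the libraries labelled TEAD4KO lie above WT for IER5 in both treatments, while SRF stays between 12.2 and 14.8 FPKM throughout.

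The first comparison set GLUP against no treatment in WT cells. No member passed an adjusted p of 0.05 in limma, where 0.00891% of all tested rows passed in either direction. At an unadjusted p under 0.05 stood 3 members, EGR1, IER2 and IER3, against 3.43% of all tested rows. These 3 and ZFP36L1 were the members whose GLUP libraries all lay above all untreated ones, which held in this direction for 10.2% of all tested rows. The median difference over the 8 tested members was 0.16 on the log2(FPKM + 1) scale, on which all differences below are given, and that over all tested rows was 0.0088.

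EGR1, the best studied member of its family, was at 4.88, 4.81 and 5.05 FPKM in the untreated WT libraries and at 7.19, 5.09 and 8.66 FPKM with GLUP. The untreated libraries lay close together, whereas replicate 15 of the GLUP group lay barely above them. The difference was 0.41 ± 0.15 (SE, n = 3 and 3; limma unadjusted p = 0.02004, adjusted p = 0.999). In bulk RNA, a change in the number of cells that express a gene and a change in its RNA per cell cannot be told apart.

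IER2, a nuclear protein induced by growth factors, was at 16.1, 15.9 and 14.99 FPKM without treatment and at 26.8, 19.3 and 20.1 FPKM with GLUP. All GLUP libraries were above all untreated ones, and replicate 14 was the highest. The difference was 0.45 ± 0.13 (limma unadjusted p = 0.00465, adjusted p = 0.869).

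IER3 was at 14.8, 16.6 and 14.3 FPKM without treatment and at 17.8, 18.2 and 19.0 FPKM with GLUP. The groups did not overlap, and the GLUP libraries were close to each other. The difference was 0.26 ± 0.073 (limma unadjusted p = 0.00366, adjusted p = 0.769). With array weights, which give less weight to libraries that vary more, it was 0.25 with a limma adjusted p of 0.0464. With these weights 61 of all tested rows passed, against 1 without them.

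The remaining members differed less with GLUP in WT. ZFP36L1 was at 12.03, 12.6 and 13.1 FPKM and, with GLUP, at 13.9, 13.4 and 16.1 FPKM, with a 95% interval of the difference from -0.0077 to 0.37. IER5, ZFP36, BTG2 and SRF each had overlapping groups. For SRF the interval ran from -0.16 to 0.17, which on the same scale is a ratio between 0.895 and 1.125. The untreated SRF values were 13.1, 14.02 and 12.6 FPKM and the GLUP values 13.2, 13.4 and 13.1 FPKM.

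The second comparison was GLUP in the cells labelled TEAD4KO, which the series description names as the specificity control. Since TEAD4 RNA was not lower in these libraries, a loss of TEAD4 is not shown by these data. Again no member passed in limma (0.0445% of all tested rows passed in either direction), and 2 members, IER2 and IER3, stood at an unadjusted p under 0.05 (6.38% of all tested rows). EGR1, IER2 and IER3 were each higher without overlap between the groups, which held for 2.85% of all tested rows. The median difference over the members was 0.068, and over all tested rows it was -0.017.

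EGR1 was at 4.798, 4.10 and 4.43 FPKM in the untreated TEAD4KO libraries and at 4.88, 5.21 and 7.23 FPKM with GLUP. Replicate 16 stood above the other GLUP libraries, and the lowest GLUP value was close to the highest untreated one. The difference was 0.30 ± 0.15 (limma unadjusted p = 0.0714, adjusted p = 0.813). IER2 was at 23.6, 22.1 and 21.1 FPKM and, with GLUP, at 25.9, 37.0 and 26.0 FPKM, with replicate 15 the highest of all 12 libraries. Its difference was 0.38 ± 0.13 (limma unadjusted p = 0.0135, adjusted p = 0.648). IER3 was at 19.2, 18.9 and 20.0 FPKM and, with GLUP, at 23.9, 21.5 and 24.996 FPKM. Its difference was 0.26 ± 0.073 (limma unadjusted p = 0.00319, adjusted p = 0.410), close to that in WT.

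Whether the GLUP difference depended on the genotype label was tested by the interaction term. No member passed (0.00891% of all tested rows passed) or stood at an unadjusted p under 0.05 (2.53% of all tested rows). The GLUP difference in TEAD4KO minus that in WT was -0.10 for EGR1 (95% interval -0.57 to 0.36), -0.073 for IER2 (-0.48 to 0.33), 0.0052 for IER3 (-0.22 to 0.23) and -0.031 for IER5 (-0.26 to 0.20). The intervals of EGR1, IER2 and IER3 are each wider than the GLUP differences themselves. A partial dependence on the label was therefore not detectable with these libraries, for IER3 as well.

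Averaged over both genotypes, which rests on the same libraries as the comparisons above, the GLUP difference was 0.42 ± 0.094 for IER2 (limma adjusted p = 0.122), 0.35 ± 0.11 for EGR1 (adjusted p = 0.367) and 0.26 ± 0.052 for IER3 (adjusted p = 0.0622). No member passed, against 0.258% of all tested rows, and these 3 were at an unadjusted p under 0.05, against 7.14%. When the trends of every library along GC content and transcript length had been removed, IER3 passed with 0.30 and a limma adjusted p of 0.01999, 1 of 54 rows that then passed. IER5 was at -0.0025 (95% interval -0.12 to 0.11) and SRF at 0.0017 (-0.11 to 0.12).

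**Figure D2:**
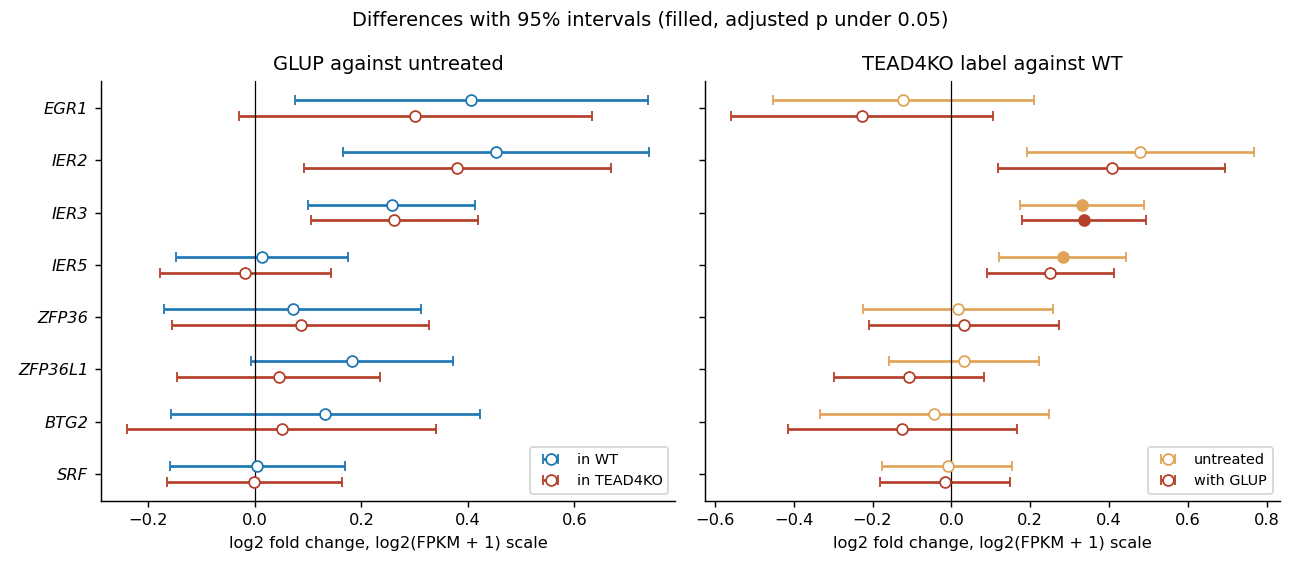
Differences on the log2(FPKM + 1) scale (horizontal axes) with 95% intervals for the 8 tested members, GLUP against untreated on the left and the TEAD4KO label against WT on the right, filled where the limma adjusted p is under 0.05. With GLUP the points of EGR1, IER2 and IER3 lie between 0.26 and 0.45 in both genotypes and none is filled; with the TEAD4KO label IER3 is filled in both treatments and IER5 in untreated cells.

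The third comparison set the TEAD4KO label against WT without treatment. IER3, a regulator of survival signalling, and IER5, a cofactor of the heat shock response, were higher, 2 of the 8 tested members, where 4.92% of all tested rows passed as higher and 0.499% as lower. Among all calls, 90.8% were thus higher, a share that was 70.6% with median-ratio scaling of the libraries and 59.2% with quantile normalization. No member passed as lower. IER2, IER3 and IER5 had groups that did not overlap, with the TEAD4KO libraries higher, as for 18.3% of all tested rows. EGR1 was lower without overlap, as were 7.47% of all tested rows, although its highest TEAD4KO value (4.798 FPKM) and its lowest WT value (4.814 FPKM) almost touched and its interval ran from -0.45 to 0.21.

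IER3 was higher by 0.33 ± 0.073 (limma adjusted p = 0.0202), from 14.3 to 16.6 FPKM in WT and from 18.9 to 20.0 FPKM in TEAD4KO. The call was lost without WT untreated replicate 1 (adjusted p = 0.0828) or 3 (adjusted p = 0.117). IER5 was at 13.1, 12.04 and 12.3 FPKM in WT and at 16.5, 14.3 and 15.4 FPKM in TEAD4KO, a difference of 0.28 ± 0.075 (limma adjusted p = 0.0442). This value stood close to the threshold, and the adjusted p lay between 0.0346 and 0.174 over the alternatives, passing in 10 of 26. Leaving out any of WT untreated replicates 1, 2 and 3, WT GLUP replicates 14 and 15, TEAD4KO untreated replicates 1 and 3 or TEAD4KO GLUP replicates 14 and 15 put it above 0.05, with 0.0501 as the lowest and 0.174 as the highest value. IER2 was higher by 0.48 ± 0.13, the largest difference of the 8 members, and did not pass (limma adjusted p = 0.0533).

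Under GLUP, the TEAD4KO label went with a higher IER3 (0.34 ± 0.073; limma adjusted p = 0.0166), and this was the only member to pass among the 8, where 4.91% of all tested rows passed as higher and 0.935% as lower. The higher rows made up 84.0% of these calls, 73.0% with median-ratio scaling and 63.0% with quantile normalization. IER3 and IER5 were higher without overlap, as were 16.7% of all tested rows. The IER3 call was lost without WT GLUP replicate 14 (adjusted p = 0.0787), 15 (0.0596) or 16 (0.0552) or without TEAD4KO GLUP replicate 14 (0.0796). IER5 was at 13.3, 12.9 and 11.6 FPKM in WT and at 15.6, 14.5 and 15.4 FPKM in TEAD4KO (0.25 ± 0.075; adjusted p = 0.0645). IER2 was higher by 0.41 ± 0.13 with groups that overlapped (adjusted p = 0.0892). EGR1 was at -0.23 ± 0.15 (adjusted p = 0.388).

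Over both treatments, a value that rests on the same libraries, IER2, IER3 and IER5 were higher, while 14.4% of all tested rows passed as higher and 5.67% as lower. The share of higher calls was 71.7%, and 57.4% and 50.2% with the same alternative scalings. The differences were 0.44 ± 0.094 for IER2 (limma adjusted p = 0.00601), 0.33 ± 0.052 for IER3 (adjusted p = 0.000806) and 0.27 ± 0.053 for IER5 (adjusted p = 0.00394). The lowest TEAD4KO value of IER5 (14.3 FPKM) lay above its highest WT value (13.3 FPKM) over all 12 libraries. This held in the same direction for 7.06% of all tested rows. EGR1, ZFP36L1, BTG2, ZFP36 and SRF lay between -0.17 and 0.024, and none of them passed. The widest of their intervals, that of EGR1, ran from -0.41 to 0.060. No member reached a difference of 2-fold in any comparison. Without TEAD4KO untreated replicate 1 and TEAD4KO GLUP replicate 16, the libraries nearer to WT in their length trend, IER3 and IER5 passed without treatment and IER2, IER3 and IER5 under GLUP. Calls over all tested rows then rose as well, from 608 to 2231 without treatment and from 656 to 3121 under GLUP. Without TEAD4KO untreated replicate 2 and WT GLUP replicate 16, the libraries with the steepest length trends, no member passed in either treatment.

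The TEAD4KO differences were set beside transcript length, because lengths went with this label across all rows. Among 10 bins of tested rows by length, IER3 with a transcript of 1237 bases fell in bin 1, the shortest, whose median difference over both treatments was 0.19. IER2 (2110 bases) fell in bin 3, with a median of 0.075. IER5 (4201 bases) and SRF (4231 bases) fell in bin 7, with a median of -0.034. IER5 and SRF, close in this length, had differences of 0.27 and -0.013 and GC contents of 49.8% and 60.8%. The lengths come from GENCODE v44, and the annotation behind the FPKM is not given in the sources used here. How far length accounts for the difference of any member was not tested by this pairing.

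After the correction for GC content and length, the difference of IER5 was 0.32 ± 0.046 over both treatments (limma adjusted p = 0.00137), 0.31 without treatment (adjusted p = 0.0368) and 0.32 under GLUP (adjusted p = 0.0212). IER3 fell to 0.18 ± 0.051 over both treatments (adjusted p = 0.0381), and its separate calls were lost, with 0.16 without treatment (adjusted p = 0.287) and 0.20 under GLUP (adjusted p = 0.137). IER2 was at 0.30 ± 0.11 over both treatments and no longer passed (adjusted p = 0.0825). The part of fragment size, RNA quality or library preparation in these trends was not tested.

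**Figure D3:**
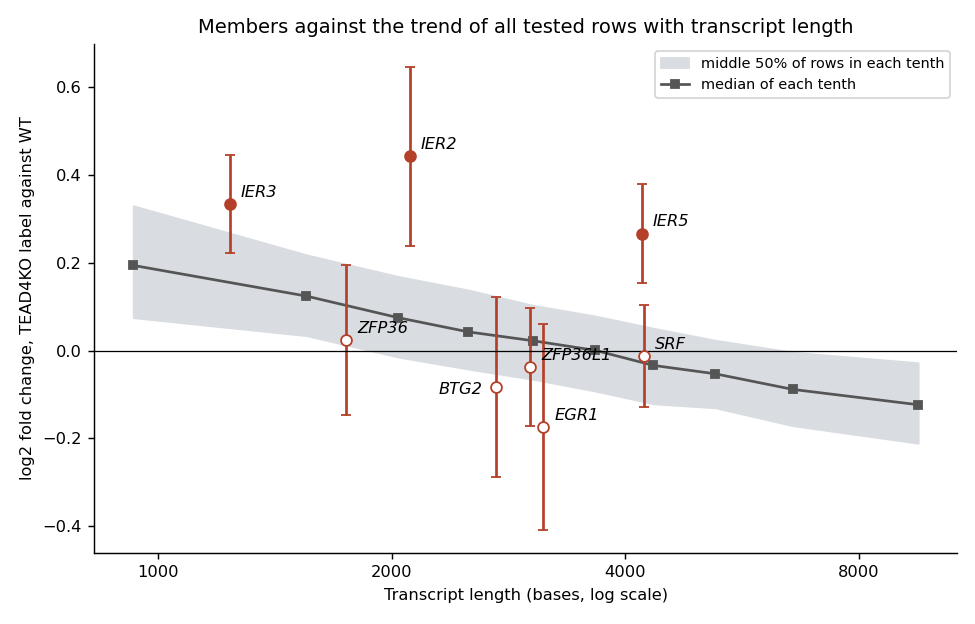
Difference between the TEAD4KO label and WT over both treatments (vertical axis, log2 scale) against transcript length in bases (horizontal axis, log scale) for the 8 tested members with 95% intervals, filled where the limma adjusted p is under 0.05, over the median and interquartile range of all tested rows in 10 bins of length. The medians fall from 0.19 in the shortest bin to -0.12 in the longest, and IER2 at 0.44 and IER5 at 0.27 lie above the interquartile range of their bins, and IER3 at 0.334 just above the upper quartile of its bin (0.330).

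**Figure D4:**
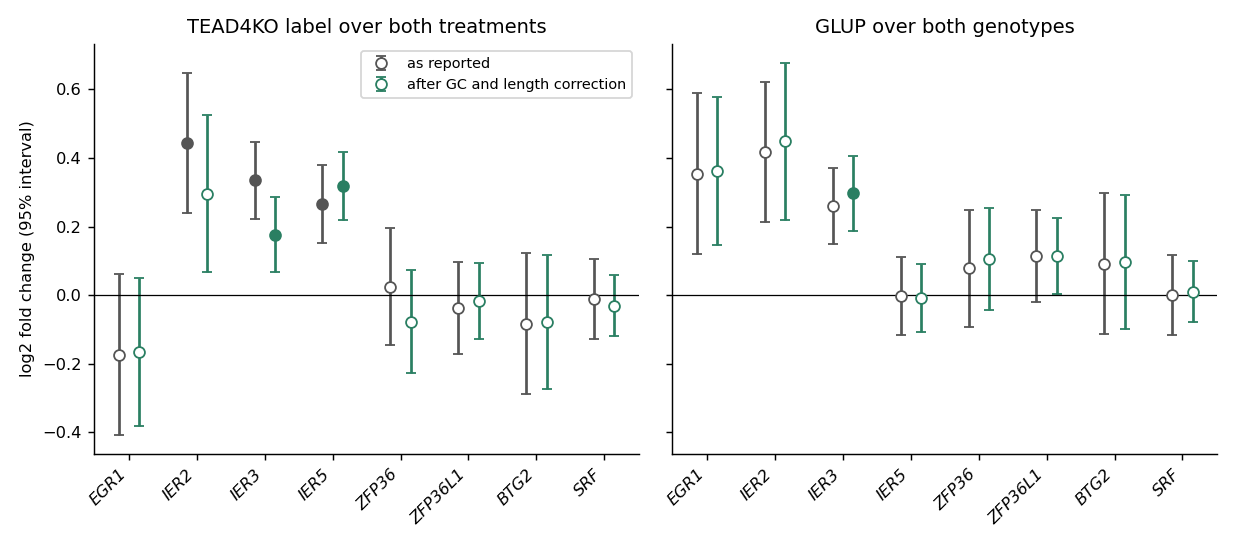
The 8 tested members before (grey) and after (green) the correction for GC content and transcript length, as log2 differences with 95% intervals (vertical axis), filled where the limma adjusted p is under 0.05. For the TEAD4KO label IER3 drops from 0.33 to 0.18 and IER5 rises from 0.27 to 0.32; for GLUP the values of EGR1, IER2 and IER3 change little, and IER3 becomes filled at 0.30.

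Of the 2 mRNA decay factors and BTG2, none passed in any of the 7 comparisons. ZFP36 was at 2.79, 2.54 and 2.44 FPKM in untreated WT, 3.18, 2.46 and 2.69 FPKM in WT with GLUP, 2.90, 2.74 and 2.28 FPKM in untreated TEAD4KO and 3.28, 2.43 and 2.88 FPKM in TEAD4KO with GLUP. The 4 groups overlapped. ZFP36L1 in the TEAD4KO libraries was at 14.7, 11.7 and 12.4 FPKM without treatment and at 13.7, 12.9 and 13.4 FPKM with GLUP, so that the treated values lay inside the untreated range. BTG2 was at 2.76, 2.93 and 3.11 FPKM in untreated WT and 4.03, 2.60 and 3.40 FPKM with GLUP, then 3.35, 2.32 and 2.84 FPKM and 3.47, 2.74 and 2.69 FPKM in TEAD4KO. Its highest and its lowest WT value thus both came from GLUP libraries. SRF in TEAD4KO was at 14.8, 12.5 and 12.2 FPKM without treatment and 13.1, 12.7 and 13.5 FPKM with GLUP.

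The members also differed in how far replicates of a group spread. The residual SD on the log2 scale was 0.22 for EGR1, 0.20 for IER2 and 0.18 for BTG2, at the percentiles 90.2, 86.2 and 81.5 of all tested rows. It was 0.081 for IER3, 0.079 for IER5 and 0.083 for SRF, at the percentiles 19.4, 18.2 and 20.9. A difference of the size seen for EGR1 was therefore less firmly measured than the smaller one of IER3. By the root mean square difference of profiles centred on each gene's own mean over the 12 libraries, ZFP36L1 and SRF were the closest pair of members (0.10) and EGR1 and IER2 the most distant (0.39). The tested rows most like EGR1 were TTLL7 (0.13; 0.895 to 1.99 FPKM), OSMR (0.13; 7.64 to 14.01 FPKM), RUNX1 (0.14; 2.45 to 4.39 FPKM), CAPRIN2 (0.14; 3.62 to 6.57 FPKM) and HMCN1 (0.14; 1.53 to 3.28 FPKM), beside a median of 0.29 over all tested rows. Those most like SRF were DNAJB12 (0.040; 9.27 to 11.8 FPKM), NTRK2 (0.041; 1.204 to 1.56 FPKM) and EPHB4 (0.042; 17.3 to 22.8 FPKM), beside a median of 0.15.

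The partners of the members were read from lists drawn up by function, with earlier results of these data known. Their counts with the label over both treatments stand beside 14.4% of all tested rows that passed as higher and 5.67% as lower. Of the SRF partners, 5 of 6 were tested (MYOCD was not), and none passed with GLUP or with the label within a treatment. Over both treatments MRTFB was lower with the TEAD4KO label (-0.23 ± 0.065; limma adjusted p = 0.0265), which was lost after the correction for GC content and length (-0.10, adjusted p = 0.163). ELK1 (9.87 to 13.1 FPKM), ELK3 (1.75 to 3.03 FPKM), ELK4 (3.46 to 6.46 FPKM) and MRTFA (6.25 to 8.81 FPKM) passed in no comparison. The median of the list was 0.050 with GLUP over both genotypes and -0.046 with the label over both treatments, where the medians of all tested rows were -0.0040 and 0.0080.

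Of 15 actin and smooth muscle genes known as MRTF-SRF targets, 14 were tested. With GLUP over both genotypes, 1 was higher, ACTA2, which encodes smooth muscle actin (0.29 ± 0.054; limma adjusted p = 0.0463). Of all tested rows, 0.258% passed there in either direction, and ACTA2 passed in neither genotype alone. With the TEAD4KO label over both treatments, 5 were higher and none lower. The largest were TAGLN, an actin-binding protein (0.58 ± 0.054; adjusted p = 3.13e-05), ACTA2 (0.30 ± 0.054; adjusted p = 0.00196), TGFB1I1 (0.26) and FHL2 (0.21). After the correction 2 passed, TAGLN (0.60) and ACTA2 (0.19). The median of this list was 0.041 with GLUP and 0.13 with the label.

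NAB2, the corepressor that EGR1 itself induces, was higher with the TEAD4KO label, at 17.9 ± 0.556 FPKM in untreated WT and 22.2 ± 0.697 FPKM in untreated TEAD4KO (SD, n = 3 each), and at 16.8 ± 0.487 and 22.0 ± 1.75 FPKM under GLUP. Its difference was 0.30 ± 0.066 without treatment (limma adjusted p = 0.0219) and 0.37 ± 0.066 under GLUP (adjusted p = 0.00579), and after the correction only the second passed (adjusted p = 0.119 and 0.0168). With GLUP it was at -0.089 in WT and -0.013 in TEAD4KO. NAB1 passed in no comparison (8.02 to 11.7 FPKM), nor did ZFP36L2, the paralog of ZFP36 and ZFP36L1 (18.7 to 23.2 FPKM). Of the 13 family and partner genes tested, over both treatments with the label 2 were higher, NAB2 (0.33) and PRMT1 (0.16), and 3 lower, among them the deadenylase genes CNOT6L (-0.29) and CNOT6 (-0.19). Only NAB2 passed after the correction. With GLUP none of the 13 passed, and the medians were 0.015 with GLUP and 0.0056 with the label.

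Of 11 genes known as EGR1 targets, 9 were tested and none passed with GLUP (median 0.025 over both genotypes). With the label over both treatments, 5 were higher, with ID3 (0.40), NAB2 (0.33) and NR4A1 (0.27) the largest, and 1 was lower, FN1, which encodes fibronectin (-0.42), with a median of 0.24. EGR1 itself did not pass in that comparison. After the correction 4 passed, among them ID3 (0.23), NAB2 (0.25) and FN1 (-0.29). Of 12 AU-rich-element mRNAs bound by ZFP36 proteins, 5 were tested, and the 1 call was PLAUR, the urokinase receptor (0.26 with the label over both treatments; limma adjusted p = 0.0409), lost after the correction. Their medians were 0.080 with GLUP and 0.096 with the label.

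The AP-1 genes, the other arm of the immediate early response, were set beside the members. With GLUP all 8 lay above 0 in WT and in TEAD4KO, as did 53.9% and 43.1% of all tested rows, and none passed (medians 0.23 and 0.12). FOS was at 30.6 FPKM in untreated WT and 42.3 FPKM with GLUP (0.45 ± 0.12; limma adjusted p = 0.666), and FOSB at 6.88 and 10.5 FPKM (0.55 ± 0.19; adjusted p = 0.999). With the TEAD4KO label the members of this list parted. FOSB was lower, at 1.30 FPKM without treatment against 6.88 FPKM in WT (-1.79 ± 0.19; adjusted p = 0.000835) and at 1.63 against 10.5 FPKM under GLUP (-2.16 ± 0.19; adjusted p = 0.000155). FOS was lower under GLUP (-0.73 ± 0.12; adjusted p = 0.00471) and at -0.36 without treatment (adjusted p = 0.108). JUNB and JUND were higher in both treatments, by 0.64 and 0.65 without treatment. Of all tested rows, 4.92% passed as higher and 0.499% as lower without treatment, and 4.91% and 0.935% under GLUP. After the correction the calls of FOSB, FOS, JUNB and JUND held, but without treatment JUNB fell to 0.40 (limma adjusted p = 0.0147) and JUND to 0.30 (adjusted p = 0.0497).

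Of 35 other genes listed as immediate early, 29 were tested and none passed with GLUP (median 0.033 over both genotypes). The list also holds genes that the study uses as TEAD4 targets, so its counts do not describe immediate early genes alone. With the label over both treatments, 14 were higher and 3 lower, with a median of 0.18, where 14.4% of all tested rows passed as higher and 5.67% as lower and their median was 0.0080. The largest were IER5L, a paralog of IER5 (0.73 ± 0.072; limma adjusted p = 5.35e-05), ID1 (0.52 ± 0.046; adjusted p = 2.95e-05), NFKBIZ (-0.46 ± 0.11; adjusted p = 0.00963) and RHOB (0.40 ± 0.045; adjusted p = 0.000107). IER5L was at 4.58 and 4.44 FPKM in WT and at 7.84 and 8.48 FPKM in TEAD4KO, without and with GLUP. After the correction 15 of the 17 passed.

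Among the lists, that of genes reporting on ERK signalling had the most calls for GLUP. It was drawn up with earlier results of these data known, so this rank is no independent result. A link from these genes to the members was not tested. Of 13 feedback and PEA3 genes, 9 were tested, and 3 were higher over both genotypes. They were the PEA3 factors ETV1 (0.57 ± 0.075; limma adjusted p = 0.00521) and ETV5 (0.51 ± 0.055; adjusted p = 0.00231) and the ERK inhibitor SPRY2 (0.37 ± 0.068; adjusted p = 0.0468). Of all tested rows, 0.258% passed in either direction over both genotypes and 0.0445% in TEAD4KO. ETV1 and ETV5 passed also in TEAD4KO alone and none passed in WT alone, a contrast whose interaction did not pass for either (adjusted p = 0.9998). All 3 calls held after the correction. The median of the list over both genotypes was 0.25. With the label over both treatments only CCND1, cyclin D1, passed (-0.30 ± 0.061; adjusted p = 0.00428; list median 0.072). Of 16 ERK cascade genes, 15 were tested and none passed with GLUP (median 0.016). With the label over both treatments 3 were higher, with RPS6KA4 (0.26) and HRAS (0.21) the largest, and 2 lower, of which SOS1 (-0.37) differed most. The median of the list was -0.080. After the correction 1 of these 5 calls kept its direction and passed, that of SOS1. HRAS (-0.058) changed sign, and so did MAP2K2, which went from 0.14 (limma adjusted p = 0.0433) to -0.094 and passed as lower (adjusted p = 0.0496). MAP2K2 is named here after its values were seen.

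**Figure D5:**
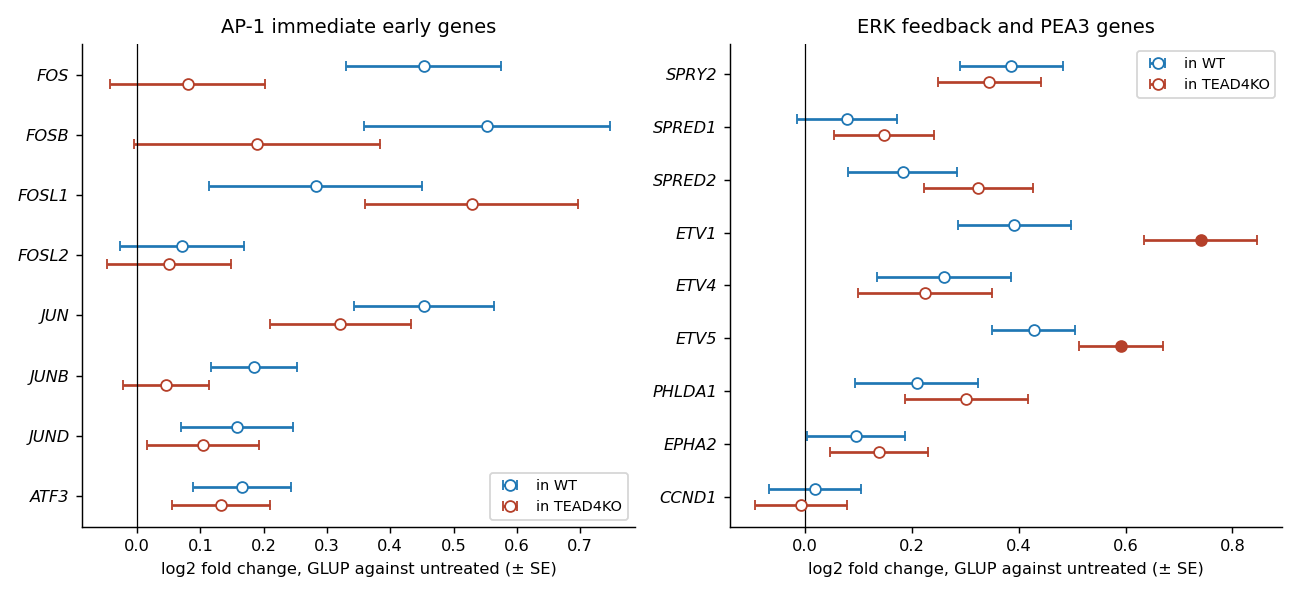
GLUP against untreated on the log2 scale (horizontal axes, ± SE) for the tested AP-1 genes on the left and the tested ERK feedback and PEA3 genes on the right, WT in blue and TEAD4KO in red, filled where the limma adjusted p is under 0.05. All 8 AP-1 genes lie above 0 in both genotypes without a filled point, and the filled points are ETV1 at 0.74 and ETV5 at 0.59 in TEAD4KO.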

How the data were processed

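The 12 libraries were grouped by the labels, 4 groups of 3. The values are FPKM as deposited by the authors, who had the reads analysed on the Majorbio cloud platform. HISAT2, Cufflinks, RSEM and hg19 are named in the submitters' processing notes without versions or roles, and the annotation, strand setting and filters are not given in the sources used here. FPKM keep no read counts, so the depth is unknown and no counting interval can be given. Since the lowest rows of a library shared no common step (at most 1.68% shared 1 ratio), reads could not be recovered.

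The test used rows that averaged 1 FPKM or more, on log2(FPKM + 1), a pseudocount of 1 that understates the change of low genes. One limma model (3.58.1, R 4.3.3) over the 4 groups, with a mean-variance trend, gave 7 comparisons that share libraries. The averaged ones are means of the single ones. P-values were adjusted by Benjamini and Hochberg over all rows tested, with 0.05 as the threshold, and all tests were two-sided. The steps were tested on simulated data. The correction for GC content and length used natural splines with 5 degrees of freedom each, and 98.7% of tested rows had both values. Gene positions came from GENCODE v44 lifted to GRCh37.

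The text names all members and their partners or paralogs (NAB1, NAB2, ELK1, ELK3, ELK4, MRTFA, MRTFB, ZFP36L2), FOS and FOSB, the rows most like EGR1 and SRF, and from each gene list at most 4 rows that passed per comparison, of which 1 is not reported here. The members and lists were chosen with earlier results of these data known. Correlations of the deviations of libraries with the same replicate number were -0.0569, 0.203 and -0.0149 in untreated cells, which did not pair them, and 0.106, 0.152 and 0.336 in GLUP cells, which met the limit of 0.1 for pairing though no label states a shared batch. Alternatives were the pseudocount, the filter, scaling, quantile normalization, array weights, the correction, the replicate block, a fit of only the groups compared and leaving out each library. A further 2 sets of left-out libraries were chosen after seeing the data.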

Additional observations from a re-analysis of the deposited data

How the results depend on the processing

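The number of members that passed stayed at 0 for GLUP in both genotypes except that IER3 made it 1 in WT with array weights, and for GLUP over both genotypes it became 1 (IER3) with the correction for GC content and length. For the TEAD4KO label over both treatments it was 3, held at 3 whichever library was left out, and fell to 0 when a fold change over 2 was also required. IER2 dropped out of these 3 with the correction (limma adjusted p = 0.0825) and with the replicate block and the correction together (limma adjusted p = 0.106). In untreated cells the number was 2, and it was 1 without the filter on low values, with median-ratio scaling, with quantile normalization, without the trend and with array weights (IER3 each time), 1 with the correction (IER5), 1 in a fit of only the groups compared (IER2) and 0 with the fold limit. Leaving out single libraries gave 0 to 3, with 0 without WT untreated replicate 1 or 3 and 3 without TEAD4KO GLUP replicate 16. Under GLUP the number was 1, and it was 2 with quantile normalization or array weights and 0 with the fold limit. Leaving out single libraries gave 0 to 2, with 0 without WT GLUP replicate 15 or 16 or TEAD4KO GLUP replicate 14. Without the 2 libraries with the steepest length trends it was 0 in either treatment, and without the 2 TEAD4KO libraries nearest to WT it was 3 under GLUP. The replicate block left the counts of members at 2, 1 and 3, and with the correction it gave 1 in untreated cells (IER5). Over the whole table the replicate block moved the calls under GLUP from 656 to 1064, those without treatment from 608 to 849 and those over both treatments from 2247 to 2724. The other counts over all rows that moved by more than 1.5 times, in untreated cells from 608, were 198 with the correction, 394 without the filter, 382 in a fit of only the groups compared, 136 with block and correction, 142 without the steepest and 2231 without the nearest libraries, and 119 to 1186 with single libraries left out, the lowest without WT untreated replicate 3. Under GLUP, from 656, they were 425 with the correction, 2487 with array weights, 259 without the steepest and 3121 without the nearest libraries, and 196 (without WT GLUP replicate 16) to 1952 (without TEAD4KO GLUP replicate 16). Over both treatments, from 2247, they were 3389 with array weights, 1141 without the steepest and 4644 without the nearest libraries, and 1388 to 3320 with single libraries left out. With the fold limit 4, 6 and 6 rows passed. For GLUP the counts of 1 in WT, 5 in TEAD4KO and 29 over both genotypes ranged over 0 to 61 (array weights), 1 to 7 (correction) and 1 to 54 (correction). The differences that changed direction were small and passed under no setting. The interaction of EGR1 ranged from -0.29 to 0.046 when single libraries were left out and was 0.00039 without the steepest libraries. That of IER2 ranged from -0.24 to 0.070 and was 0.049 without the TEAD4KO libraries nearest to WT. That of IER3 ranged from -0.054 to 0.065, was -0.014 with array weights and -0.048 without the nearest libraries. That of IER5 ranged from -0.087 to 0.017 and was 0.0017 with quantile normalization, 0.012 with the correction, with or without the replicate block, and 0.0062 without the nearest libraries. For IER5 the GLUP difference ranged from -0.067 to 0.030 in TEAD4KO (0.019 without the nearest libraries). In WT it ranged from -0.026 to 0.069, with -0.0047 under quantile normalization and -0.015 with the correction. Over both genotypes it ranged from -0.027 to 0.025, with 0.0099 under array weights, 0.0011 without the steepest and 0.016 without the nearest libraries. Of 678 recomputed values of ZFP36, ZFP36L1, BTG2 and SRF, 78 changed direction and none passed. The cause of these changes was not tested.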
